A study of Mus musculus with 4 samples.

Results

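Protein-coding genes of the mouse ovary are described that differed at embryonic day 3.5 between pregnant animals in low oxygen (hypoxia) and animals in normal oxygen (normoxia). The low-oxygen exposure was placed 72 hours after fertilization, and the study asked how low oxygen affects the time of implantation. Per the series design, RNA from 3 samples was pooled in each group, so the comparison is 1 ovary library in hypoxia against 1 in normoxia, with no replicate and no test. The labels do not state the oxygen level or the strain and age of the mice.

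The members are all genes classed as protein coding in the ovary table deposited by the authors, 222 of its 854 genes and of the 1696 genes listed for ovary or uterus. The table holds genes whose log2 fold change is at least 2 in either direction, so the members were chosen by the measured fold change, which is given as a description with no test. It gives no levels and no sign convention, and positive values are taken here as higher in hypoxia. If the authors divided normoxia by hypoxia instead, every direction below turns, and the reads given for the libraries change places. Each deposited fold change was a ratio of whole numbers times 1 shared factor of 0.952, and these whole numbers were read as read counts plus 1. The read counts below rest on that inference, and a factor common to both numbers is lost, so the true counts can be larger. Intervals are exact 95% Clopper-Pearson intervals for the ratio of the reads, scaled by the shared factor, and cover counting error only.

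The ovary in the first days of pregnancy holds follicles and newly formed corpora lutea. Granulosa cells surround the oocyte and turn androgens into estrogens, theca cells supply the androgens, and luteal cells make the progesterone that keeps the uterus receptive. The tissue as dissected can also carry oviduct, fat, the ovarian bursa and, in mice, rests of adrenal cortex. The table names no gene that stayed under the threshold, so the ovarian identity of the libraries cannot be checked from the levels of such genes.

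Of the 222 genes, 99 were higher in hypoxia and 123 lower, so 44.6% were higher, against 50.7% of the 854 listed genes of every class and 52.8% of the listed genes that are not protein coding. With the sign turned these shares would be 55.4%, 49.3% and 47.2%. The 222 genes are 1.01% of the 21951 protein-coding genes in the annotation, with 0.451% listed as higher and 0.56% as lower. With a share this small, a short gene list with no member in the table is not a result about its genes. Most rested on few reads. The median over both libraries was 7 reads, 141 genes had under 10, and 139 had no reads on one side by the smallest reading. The counting interval of 94 genes included an equal level. Of the lower genes, 34 had a ratio of 1 to 4, read as 0 reads against 3, and no gene could be listed for the mirror ratio, since 4 to 1 gave a log2 value of 1.93. Without these 34 genes 52.7% of the members were higher, or 47.3% with the sign turned. The counts by class, neighbour group and chromosome below include these 34 genes, which add to the lower side only. Just inside the threshold, in the authors' deposited table, stood Ifi44 at -2.001, H3c11 at -2.01 and the gene model 9330159F19Rik at 2.01.

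A total of 40 genes had at least 50 reads over both libraries, 11 higher and 29 lower, or 27.5% higher against 41.8% of the 67 listed genes of every class with as many reads (72.5% against 58.2% with the sign turned). The interval of each of these 40 genes lay beyond a 2-fold difference, which the threshold and the minimum of reads largely set in advance. The ratio of the reads ran from 4.23 to 29.0 in the 11 higher genes, with a median of 6.13. In the 28 lower genes with reads in both libraries it ran from 4.03 to 17.5, with normoxia above hypoxia.

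**Figure D1:**
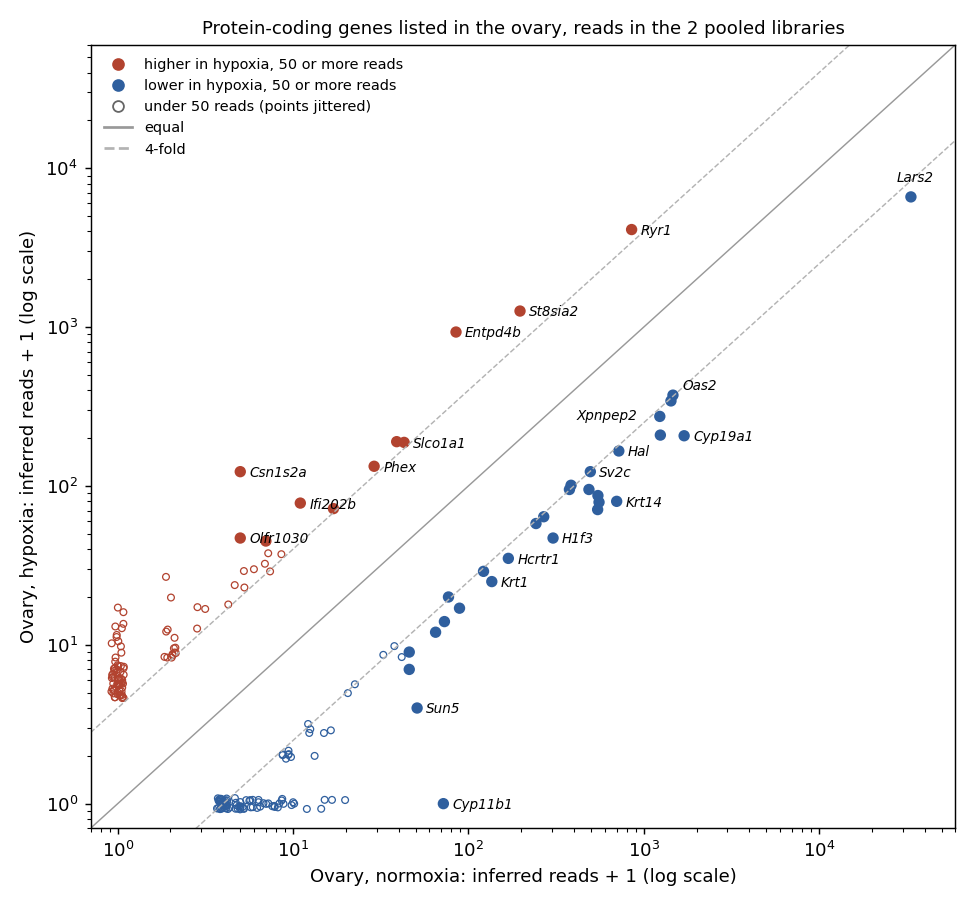
Inferred reads plus 1 in the normoxia library (horizontal, log scale) and the hypoxia library (vertical, log scale) for the 222 listed protein-coding ovary genes, filled where both libraries together held 50 reads or more. Dashed lines mark 4-fold ratios, where the list starts once the shared factor is applied, so that a few points lie just inside the lower line; 139 genes sit at the edges with no reads on one side.

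**Figure D2:**
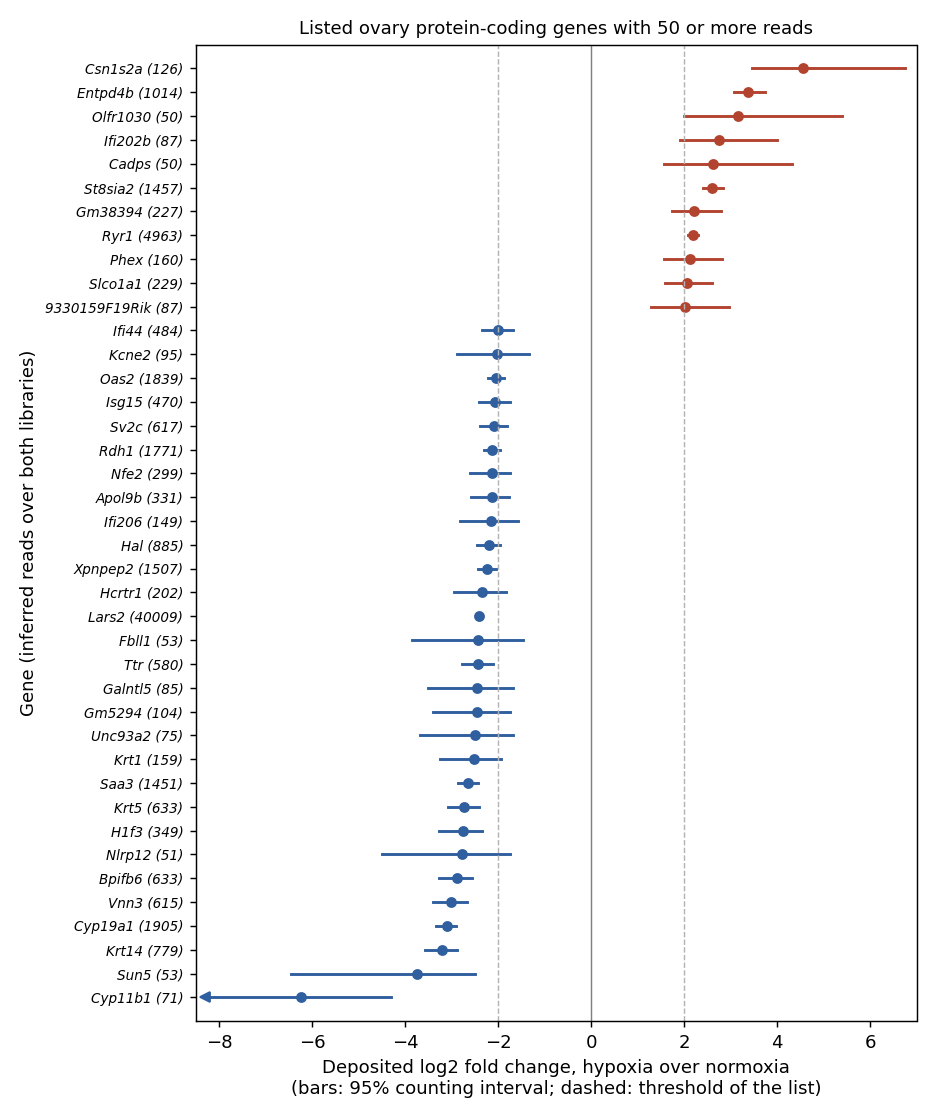
Deposited log2 fold change of the 40 genes with at least 50 reads (points), with the 95% counting interval of the ratio of the reads (bars) and the reads over both libraries in brackets. Of these genes 29 lie on the lower side and 11 on the higher side, and the arrow marks Cyp11b1, whose interval has no lower end.

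Enzymes and carriers of steroids, retinoids and lipids made up 15 members, 5 higher and 10 lower. Pnpla5, Fabp9 and Sult1e1, counted as lower, had 0 reads against 3. The 5 genes of the class with at least 50 reads were all lower, as were 29 of all 40 members with as many reads. Cyp19a1, the aromatase of granulosa cells, had 206 reads in hypoxia and 1699 in normoxia, a ratio 8.66 times lower in hypoxia (interval 7.49 to 10.1). In bulk tissue, fewer cells of a type and less RNA per cell cannot be told apart. Cyp19a1 was the 1 member among 20 granulosa markers, and no gene of the lists for luteal cells (0 of 20), theca (0 of 9) or oocytes (0 of 34) was in the table. The table therefore names aromatase without Fshr, Inha, Amh or Foxl2, which mark the same cells, and without Star, Cyp11a1 or Hsd3b1, which act earlier in steroid synthesis. Only 1.01% of all annotated protein-coding genes were in the table, so these empty lists are no result about the cells. A gene absent from the table can still have differed by less than the threshold.

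Cyp11b1, which makes corticosterone in the adrenal cortex, had 0 reads in hypoxia and 71 in normoxia. With a floor of 3 reads for the empty library it was at least 24.9-fold lower in hypoxia, while the counting interval, which also covers the error of the 71 reads, ended at 19.7-fold. Every value given as at least so many fold rests on this floor alone and leaves out the counting error of the library with reads, and the interval ended below it in all 105 genes with such a value. The gene lies across Gml2 on the other strand, and the labels do not state whether the authors' counting used strand. The other adrenal cortex marker in the table, Mc2r, the receptor for corticotropin, went the other way with 5 reads in hypoxia and 0 in normoxia. Its counting interval included an equal level. The remaining 8 of the 10 adrenal cortex markers, among them Cyp11b2, Cyp21a1 and Akr1b7, were not in the table.

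Rdh1, a retinol dehydrogenase that turns retinol into retinal, had 342 reads in hypoxia and 1429 in normoxia, 4.39 times lower (interval 3.90 to 4.95). Its annotated span overlaps Rdh16f1 on the same strand, so its value is uncertain. Ttr, the carrier of thyroxine and of retinol-binding protein, had 94 and 486 reads, 5.43 times lower (interval 4.35 to 6.85). Apol9b, an apolipoprotein L gene with a close copy, had 63 and 268 reads, 4.47 times lower (interval 3.38 to 5.98). The other 10 genes of the class had at most 11 reads. Among them the sulfotransferase genes differed in sign, Sult1d1 with 6 reads in hypoxia and 0 in normoxia and the estrogen sulfotransferase Sult1e1 with 0 and 3. The interval of Sult1e1 included an equal level, so a difference between these genes is not shown.

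Other enzymes numbered 15, with 6 higher and 9 lower, and 7 of them had at least 50 reads. Hal, the histidase that opens histidine breakdown, had 165 reads in hypoxia and 720 in normoxia, 4.58 times lower (interval 3.86 to 5.46). Uroc1, the urocanase of the next step, was also on the lower side but had 0 reads against 3. Xpnpep2, a membrane aminopeptidase that clips kinins, had 273 and 1234 reads, 4.75 times lower (interval 4.16 to 5.43). Vnn3, of the vanin family of pantetheinases, had 70 and 545 reads, 8.18 times lower (interval 6.37 to 10.6). Hal, Xpnpep2 and Vnn3 lay on the lower side, as Rdh1 and Ttr did.

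Enzymes on the higher side included St8sia2, which adds polysialic acid chains to the neural cell adhesion molecule. It had 1261 reads in hypoxia and 196 in normoxia, 6.13 times higher (interval 5.27 to 7.16). Entpd4b, a nucleoside diphosphatase gene, had 930 and 84 reads, 10.5 times higher (interval 8.43 to 13.3), though its reads may be split with its near copy Entpd4, which was not in the table. Phex, an endopeptidase of bone that takes part in phosphate balance, had 132 and 28 reads, 4.49 times higher (interval 2.97 to 7.01).

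Lars2, the leucyl-tRNA synthetase of mitochondria, had the most reads of any member, 6600 in hypoxia and 33409 in normoxia, 5.32 times lower (interval 5.18 to 5.46). It held 60.3% of the reads of all 222 genes. In the same table the ribosomal RNA gene CT010467.1, which is no member, had 17664 reads in hypoxia and 79386 in normoxia. That gene was thus lower in hypoxia as Lars2 was, and the part of ribosomal RNA in the Lars2 value was not tested. None of the 13 mitochondrially encoded protein genes was in the table (0 of 13).

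Keratins, epidermal proteins and secreted epithelial proteins numbered 19, with 5 higher and 14 lower. Krt14 and Krt5, the keratin pair of basal cells in stratified epithelium, had 79 against 700 reads and 86 against 547 reads, hypoxia first, 9.30 and 6.68 times lower (intervals 7.37 to 11.9 and 5.31 to 8.49). Krt1, a keratin of the layers above, had 24 reads in hypoxia and 135 in normoxia, 5.91 times lower (interval 3.81 to 9.54). Krt6a and Krt16, a keratin pair of activated epithelium, had no reads in hypoxia and 15 and 9 in normoxia, at least 5.25-fold and 3.15-fold lower by the floor of 3 reads, with intervals that ended at 3.77-fold and 2.07-fold. Serpinb5, the epithelial serpin maspin, had 0 reads in hypoxia and 13 in normoxia, at least 4.55-fold lower.

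These 6 genes were the members of the squamous and urothelial list, 6 of 31 genes, all lower; the list was put together with earlier results of these data known, so its share does not stand as independent evidence. The list's Trp63, Upk1a, Upk2, Ivl and Lor were not in the table, nor was any of the 15 markers of ovarian surface and bursa, Krt8, Krt18 and Krt19 included (0 of 15). Outside the list, Fat2, an atypical cadherin of keratinocytes, had 4 reads against 20, Trim29 had 1 against 8, and Fgfbp1 had 0 against 4, all on the lower side. Edar, the ectodysplasin receptor of skin appendages, went the other way with 30 reads in hypoxia and 6 in normoxia.

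Secreted epithelial proteins followed the same side in part. Bpifb6, of the bactericidal permeability-increasing fold family, had 78 reads in hypoxia and 555 in normoxia, 7.47 times lower (interval 5.89 to 9.60), and its relative Bpifb2 had 0 and 19, at least 6.65-fold lower. The protease inhibitor genes were split. Wfdc9 had 0 reads in hypoxia and 7 in normoxia, while Serpina1e had 21 and 4, Serpine3 had 9 and 0, and Spink12 had 4 and 0. Genes of the Serpina1 group are near-identical copies, so the Serpina1e value is uncertain.

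Immune and blood cell genes numbered 20, with 8 higher and 12 lower. Ly6i, Ly6m and Hbq1a, counted as lower, had 0 reads against 3. Of the 8 genes of the class with at least 50 reads 7 were lower, beside 29 of all 40 members with as many reads. Interferons induce antiviral genes through a factor complex that binds an element with the core GAAANNGAAA. The interferon list had 3 of 38 members in the table, all lower. Oas2, which makes the oligoadenylates that activate RNase L, had 372 reads in hypoxia and 1467 in normoxia, 4.14 times lower (interval 3.69 to 4.65). Isg15, a ubiquitin-like modifier, had 94 and 376 reads, 4.20 times lower (interval 3.34 to 5.32). Ifi44 had 100 and 384 reads, 4.03 times lower (interval 3.23 to 5.08). The 3 ratios lay close together and close to the threshold, so interferon genes with a slightly smaller difference would not be listed. Ifit1, Mx1, Rsad2, Irf7 and Usp18 were among the 35 members not in the table.

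The promoters of Isg15 and Ifi44 are printed because these genes lay on the same side with like ratios. Each runs from 250 bases before to 50 after the transcript start (RefSeq, GRCm38.p6, minus strand), at chr4:156200769-156201068 and chr3:151749861-151750160. Capitals mark matches to GAAANNGAAA or to its shorter form AAANNGAAA, which lies inside it, on either strand; overlapping matches run together.
Isg15: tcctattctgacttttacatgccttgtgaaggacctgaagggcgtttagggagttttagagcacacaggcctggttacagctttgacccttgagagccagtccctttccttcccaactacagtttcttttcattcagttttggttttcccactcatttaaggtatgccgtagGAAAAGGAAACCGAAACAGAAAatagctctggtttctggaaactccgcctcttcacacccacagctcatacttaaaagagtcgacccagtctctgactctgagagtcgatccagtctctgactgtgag
Ifi44: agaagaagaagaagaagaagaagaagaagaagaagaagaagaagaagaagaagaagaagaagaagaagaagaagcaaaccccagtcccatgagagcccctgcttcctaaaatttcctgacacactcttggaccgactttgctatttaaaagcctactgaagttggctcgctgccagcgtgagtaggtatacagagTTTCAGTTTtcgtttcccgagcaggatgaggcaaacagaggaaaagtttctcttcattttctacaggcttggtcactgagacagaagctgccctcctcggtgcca

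The matched run of Isg15 starts at position -78 from the transcript start and that of Ifi44 at -55. The longer form was found in 3.44% and the shorter in 10.6% of 32851 promoters of the same length. Isg15 held the longer form, and the Ifi44 window held only the shorter one. Of 7 genes looked up by symbol (Oas2 besides those named here), 6 matched an entry. The longer form was also in the windows of Apol9b, Saa3 and Ifi206 and was not found in that of Ifi202b. A match is a description of the letters and not of binding.

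Ifi206 and Ifi202b belong to a family of interferon-inducible DNA-binding proteins and lie within 1 region of chromosome 1, yet they differed in sign. Ifi206 had 28 reads in hypoxia and 121 in normoxia, 4.54 times lower (interval 2.99 to 7.11). Ifi202b had 77 and 10 reads, 7.33 times higher (interval 3.78 to 15.9). The family has near-identical copies, so reads may be split between them. Saa3, an acute-phase amyloid protein, had 208 and 1243 reads, 6.28 times lower (interval 5.41 to 7.30). Of the 25 acute-phase and metal-binding genes, 3 were in the table, and the third besides Saa3 and Serpina1e was the metallothionein Mt2 with 0 reads against 4.

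Blood cell genes with at least 50 reads were Nfe2 and Nlrp12. Nfe2, a transcription factor of megakaryocytes and red cell precursors, had 57 reads in hypoxia and 242 in normoxia, 4.46 times lower (interval 3.33 to 6.06). None of 15 erythroid markers was in the table (0 of 15), and the theta globin copies Hbq1a and Hbq1b had 0 against 3 and 4 against 0 reads. Nlrp12, an inflammasome-family protein of myeloid cells, had 6 and 45 reads, 7.88 times lower (interval 3.35 to 22.6), and its span holds microRNA genes on both strands. Klrb1a and Klrc2, lectin-like receptor genes outside the gene lists, had 21 reads in hypoxia and 4 in normoxia and 8 and 1. Il4, a cytokine of helper T cells and mast cells, also had 8 and 1. The lists for neutrophils, for B and plasma cells and for T and natural killer cells had no member in the table (0 of 22, 0 of 16 and 0 of 21), and the macrophage list had Trem1, with 9 reads in hypoxia and 0 in normoxia.

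Milk caseins were both higher. Csn1s2a, an alpha-S2-type casein, had 122 reads in hypoxia and 4 in normoxia, 29.0 times higher, the widest ratio on the higher side among genes with at least 50 reads (interval 11.1 to 108). Csn2, beta-casein, had 17 reads in hypoxia and 0 in normoxia, at least 5.40-fold higher. They were 2 of 11 mammary genes, and Csn1s1, Csn3, Wap and Lalba were not in the table. Prolactin drives casein genes in the mammary gland, and no gene of the prolactin and gonadotropin list was in the table (0 of 18). With 1.01% of all annotated protein-coding genes in the table, that empty list is no result about prolactin. The part of prolactin in the casein values was not tested.

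Ion channels and transporters numbered 14, with 6 higher and 8 lower. Ryr1, the calcium release channel of skeletal muscle, had 4111 reads in hypoxia and 852 in normoxia, 4.59 times higher (interval 4.27 to 4.95), the second largest number of reads among the members. It was the 1 gene of the 25 skeletal muscle markers in the table, without Acta1, Ckm or the fast myosins. Genes of the contractile apparatus were on the other side, Mybpc2 with 9 reads in hypoxia and 38 in normoxia, Abra with 1 and 8 and Myh13 with 0 and 4. Slco1a1, an organic anion transporter that carries bile salts and steroid conjugates, had 187 and 42 reads, 4.24 times higher (interval 3.02 to 6.08). Kcne2, a potassium channel subunit, had 19 and 76 reads, 4.20 times lower (interval 2.51 to 7.36). Slc12a1 and Slc34a1, transporters known from the kidney tubule, were on the lower side with few reads, the former with 0 against 4 and the latter with 0 against 3.

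Neural and neuroendocrine genes lay on both sides. Of the 15 synaptic, axonal and adhesion genes, 6 were higher and 9 lower. C1ql4, Cntn5 and Doc2a, counted as lower, had 0 reads against 3. Sv2c, a synaptic vesicle glycoprotein, had 122 reads in hypoxia and 495 in normoxia, 4.26 times lower (interval 3.49 to 5.24). Cadps, which primes dense-core vesicles for release, had 44 and 6 reads, 6.98 times higher (interval 2.96 to 20.1). Calb2, the calcium-binding protein calretinin, had 11 reads in hypoxia and 0 in normoxia, at least 3.49-fold higher. Syt8, of the synaptotagmin family, had 9 reads in hypoxia and 0 in normoxia. Ermn, a protein of myelinating cells, had 0 and 14, at least 4.90-fold lower. The nerve and neuroendocrine list had 5 of 29 genes in the table, 3 higher and 2 lower.

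Hormones, neuropeptides and their receptors numbered 18, with 8 higher and 10 lower, and 15 of them had no reads on one side. The lower ones include Gal, Pdyn, Kng1, Gpr12 and Htr1f with 0 reads against 3, which could be listed only as lower. The split of this class therefore shows no direction. Hcrtr1, an orexin receptor, was the member with at least 50 reads, with 34 in hypoxia and 168 in normoxia, 5.19 times lower (interval 3.57 to 7.74). Calca and Calcb, neighbouring genes for calcitonin gene-related peptides, were both on the higher side with 18 reads against 1 and 6 against 0. Avpr1a, a vasopressin receptor, had 28 reads in hypoxia and 5 in normoxia. Leptin, prodynorphin, galanin and neuropeptide S (Lep, Pdyn, Gal and Nps) had 0 reads in hypoxia and between 3 and 5 in normoxia. With so few reads their size and order were not fixed.

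**Figure D3:**
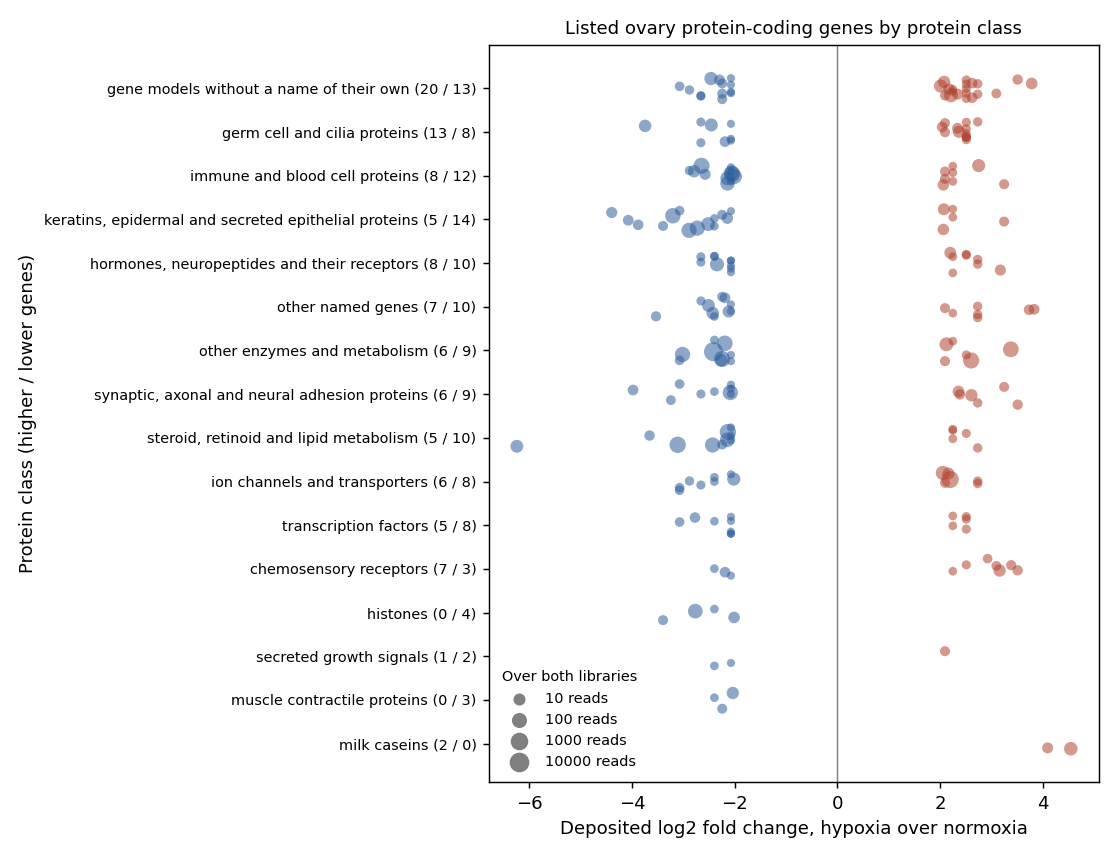
Deposited log2 fold change (horizontal) of the 222 genes by protein class, with the number higher and lower in brackets and the point area growing with the reads over both libraries. Every large point of the steroid, retinoid and lipid class lies on the lower side, as do 29 of the 40 members with at least 50 reads. The 4 histones are all lower, though the interval of H4c1 included an equal level, and the 2 caseins are both higher.

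All 4 histone genes in the table were lower, 4 of 101 annotated or 3.96%, beside 1.01% of all protein-coding genes. H1f3, a linker histone, had 46 reads in hypoxia and 303 in normoxia, 6.92 times lower (interval 5.06 to 9.65). H3c11 had 5 and 22, H4c6 had 0 and 9, and H4c1 had 0 and 4 with an interval that included an equal level. Most replication histone messages lack a poly(A) tail and the libraries were made from polyadenylated RNA, per the labels' protocols. Near-identical histone copies make these values uncertain. Transcription factors numbered 13, 5 higher and 8 lower, and each of them had at most 13 reads over both libraries. The lower ones include Insm2, Dbx2, Foxd3, Rhox9 and Ovol3 with 0 reads against 3, a ratio that could be listed only as lower. The split of this class therefore shows no direction. The Iroquois genes Irx2 and Irx4, which pattern tissues in development, lie near each other on chromosome 13 and had 0 reads in hypoxia and 4 and 7 in normoxia.

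Genes best known from germ cells and cilia numbered 21, 13 higher and 8 lower. Sun5, which couples the sperm head to the tail, had 3 reads in hypoxia and 50 in normoxia, 17.5 times lower (interval 5.65 to 87.7). Galntl5, a glycosyltransferase-like protein of spermatids, had 13 and 72 reads, 5.82 times lower (interval 3.20 to 11.4). Enkur, a calcium channel-binding protein of sperm and cilia, had 37 and 6 reads and was on the higher side. Ccdc153, the 1 gene of 22 oviduct and cilia markers in the table, had 5 reads against 0, and Ovgp1 and Foxj1 were not in the table. The spermatid list, put together with some of its listed genes known, had 4 of 27 in the table. Besides Sun5 these were Acsbg2, an acyl-CoA synthetase of the testis, with 0 reads in hypoxia and 11 in normoxia, Ccdc83 with 0 and 10, and the transition protein Tnp2 with 5 and 0. Acsbg2 was at least 3.85-fold lower.

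Chemosensory receptors numbered 10, 7 higher and 3 lower, and Olfr1030 was the one with at least 50 reads, with 46 in hypoxia and 4 in normoxia, 10.95 times higher (interval 3.999 to 41.9). Vmn1r157 and Olfr111 had 11 and 10 reads in hypoxia and 0 in normoxia. Olfactory receptor genes were 8 of 1134 annotated, or 0.705%, below the 1.01% of all protein-coding genes, and no ribosomal protein gene was in the table (0 of 176).

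Among the 17 other named genes, Ccdc7b and Tmem239 had 14 and 13 reads in hypoxia and 0 in normoxia, at least 4.44-fold and 4.13-fold higher. In the same class Fbll1, a fibrillarin-like gene, had 8 reads in hypoxia and 45 in normoxia, and Unc93a2 had 11 and 64, 5.91 and 6.11 times lower (intervals 2.76 to 14.5 and 3.20 to 12.8). The 33 gene models without a name of their own were 20 higher and 13 lower, and 3 of them had at least 50 reads. Gm38394 had 189 reads in hypoxia and 38 in normoxia, 4.74 times higher (interval 3.33 to 6.90), and overlaps Zc3h11a and Zbed6 on the same strand. The model 9330159F19Rik had 71 and 16 reads, 4.23 times higher (interval 2.43 to 7.79). Gm5294 had 16 and 88, 5.78 times lower (interval 3.37 to 10.5).

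Low-oxygen response genes, which hypoxia-inducible factors raise in many cells, had no member in the table (0 of 49), among them Vegfa, Slc2a1, Ldha, Pgk1, Bnip3, Egln3 and Adm. The table held 1.01% of all annotated protein-coding genes, so an empty list of this size is no result about the low-oxygen response. A difference under the threshold stays unseen in a table of this kind. No gene of the cytokine and chemokine list was in the table (0 of 36), and the ovulation list had 1 of 18, Sult1e1, and the glucocorticoid list 1 of 15, Mt2. The endothelial and smooth muscle lists had none (0 of 17 and 0 of 11), and the adipocyte list had leptin. The uterine gland list had 3 of 20, namely Ttr, Guca2b with 0 reads in hypoxia and 4 in normoxia, and Sult1d1.

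**Figure D4:**
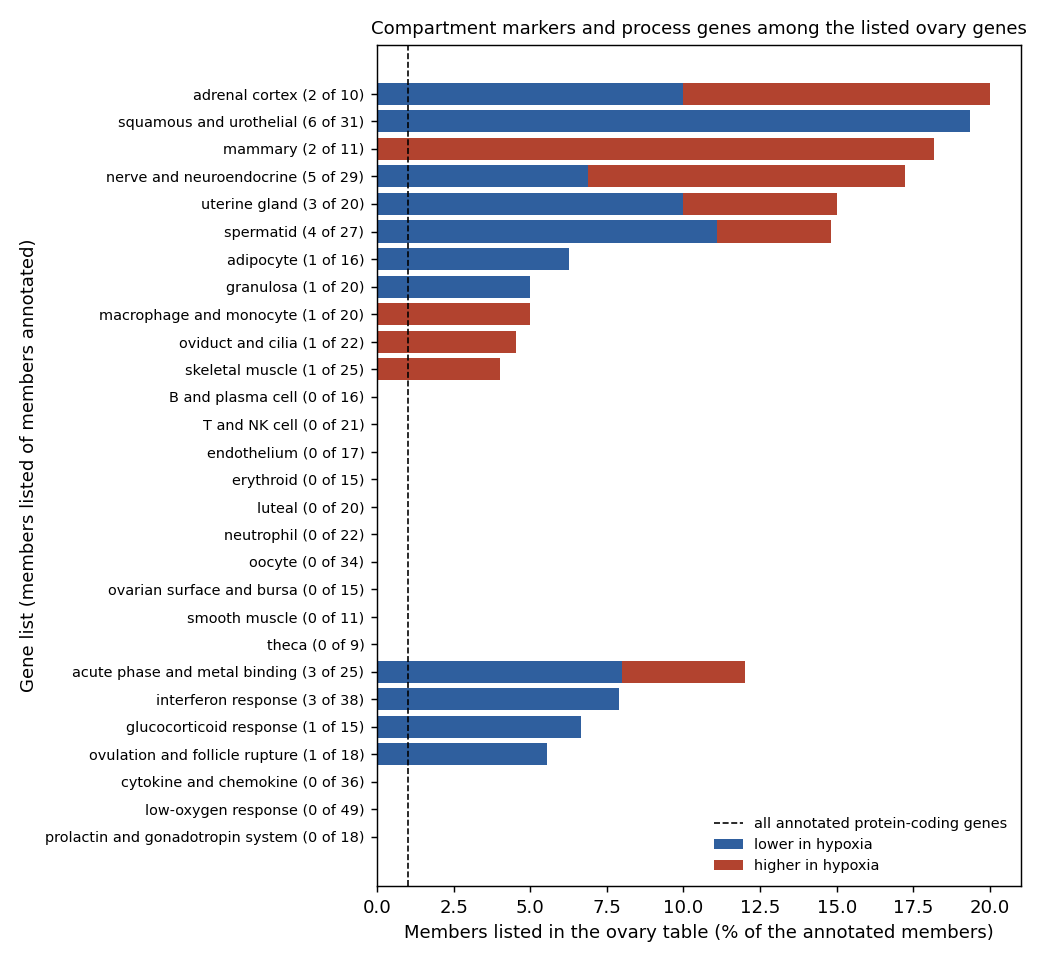
Share of each gene list found in the ovary table (% of its annotated members), with lower genes in blue and higher genes in red and the dashed line at 1.01%, the share of all annotated protein-coding genes. The lists were put together with earlier results known, so bars such as 6 of 31 squamous and urothelial genes are descriptions; the empty rows include luteal cells, oocytes and the low-oxygen response.

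A position on GRCm38 was found for 218 of the 222 genes. Members within 1000 kb of each other formed 21 groups of 52 genes, of which 9 groups had 1 direction and 12 had both. Of the 21 groups, 15 were pairs, and how many groups any 222 genes would form was not computed. In a mixed group on chromosome 5, Sult1d1, Csn2 and Csn1s2a were higher and Sult1e1 lower, the last with 0 reads against 3. The largest group held 6 genes on chromosome 2 between 175321955 and 177267036, all higher. Gm14308 had 28 reads in hypoxia and 1 in normoxia, Gm2004 had 18 and 3, and Gm14409 had 8 and 0. The zinc finger gene Zfp969, Gm4631 and Gm14419 each had 5 and 0, with counting intervals that included an equal level. Sun5, Bpifb2 and Bpifb6 lie side by side on chromosome 2 between 153856188 and 153912795, all lower. Cyp11b1, Ly6m and Ly6i lie together on chromosome 15 between 74834125 and 74983430, all lower, with 0 reads in hypoxia and 71, 3 and 3 in normoxia. The intervals of Ly6m and Ly6i included an equal level, and their ratio could be listed only as lower, so the shared direction is no result. Chromosome 15, which also holds Krt1, Krt5 and Krt6a, had 1 higher and 12 lower genes, and 1.66% of its protein-coding genes were in the table, the highest share of any chromosome. That split and share include Pnpla5, Ly6i, Ly6m, C1ql4 and Dbx2, each with 0 reads against 3, a ratio listed only as lower. The share without such genes was not computed, so the rank is no result about the chromosome. Cyp19a1 lies on chromosome 9 from 54165937 to 54268110, Rdh1 on chromosome 10 from 127759721 to 127768297 and Ryr1 on chromosome 7 from 29003344 to 29125179.

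Of the 222 genes, 19 were also listed for the uterus, 8.56% of the ovary genes and 5.64% of the 337 uterus genes. Of all annotated protein-coding genes, 1.01% were in the ovary table, a share that also counts genes without reads. The overlap was not tested. The direction was the same in 11, 6 higher and 5 lower, and opposite in 8. Cadps was higher in both tissues, with 26 reads in hypoxia and 4 in normoxia in the uterus. Gm14419 had 24 and 1 in the uterus and Trem1 had 18 and 1, both higher as in the ovary. H4c6, Fgfbp1 and leptin were on the lower side in both, with at most 9 reads over both libraries of a tissue. Saa3 was the 1 shared gene with at least 50 reads in both tissues.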

How the data were processed

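RNA of the ovary and the uterus was sequenced after polyadenylated RNA capture and strand-specific library preparation, per the labels' protocols. FastQC 0.73, HISAT2 2.2.1, HTSeq 0.9.1, DESeq2 2.11.40.7 and the build mm10 are named in the submitters' processing notes; no source used here says which tool gave the fold changes. The authors deposited, per the file headers, a log2 fold change per gene for each tissue, and tests on the values showed none under 2 in size. Depth is unknown beyond the inferred reads. From the deposited log2 values the whole-number ratios were recovered (relative tolerance 5e-14, every listed gene), a step tested on simulated data. Positions came from GENCODE M21, matched by symbol and chromosome; 59 of the members overlap another gene on the other strand and 35 on the same strand. Named genes were those with at least 50 reads, the 10 largest values in each direction among genes with a name of their own, and listed members of the gene lists; others were chosen after their values were seen. The members, gene lists and classes were chosen with earlier results of these data known, and the protein classes were assigned by hand from symbols. No test was run. Alternatives were a threshold of 3, a pseudocount of 5 in place of 1, other minimums of reads and leaving out kinds of genes. Python 3.11.15, NumPy 2.4.6, pandas 2.3.3, SciPy 1.17.1 and Matplotlib 3.10.9 were used.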

Additional observations from a re-analysis of the deposited data

Results flagged for a closer look

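Genes of the ovary table that the uterus table lists with the opposite sign are given here, and the difference between tissues was not tested for any of them. The authors' deposited tables gave Saa3 -2.64 in the ovary and 2.05 in the uterus. Edar had 2.08 and -2.12 in the authors' deposited tables, with 30 reads in hypoxia and 6 in normoxia in the ovary and 2 and 12 in the uterus. Fat2 had -2.14 and 2.99, Acsm5 -2.24 and 2.16, and Tex22 -2.66 and 2.32, ovary first, in the authors' deposited tables. The same order in the authors' deposited tables gave 3.51 and -3.01 for Calb2, 3.25 and -2.01 for Serpine3, and 2.51 and -3.81 for Bhmt2. Apart from Saa3 and Edar, each of these genes had at most 24 reads over both libraries in either tissue.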

How the results depend on the processing

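The counts of 99 higher and 123 lower genes depended on the threshold and on genes with few reads. With positive values read as higher in normoxia, a reading added after seeing the data, 55.4% were higher. With a threshold of 3 they were 17 and 21. With a pseudocount of 5 they were 10 and 29, and 25.6% were higher. Without genes with no reads on a side they were 37 and 46. Leaving out ratios of 1 to 4 gave 52.7% higher. Without families of near-identical copies, 92 genes were higher and 111 lower. With a minimum of 20 or 100 reads, 55 or 29 genes passed in place of 40, and 41 with the whole numbers taken as the reads. Of 68 named genes, 38 still passed 2 with a pseudocount of 5. Cyp11b1 then had -4.00, against -6.24 in the authors' deposited table, outside its counting interval. No paired analysis was possible because each group was 1 pooled library.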
